A study of Oryza sativa with 13 samples.

Results

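In developing rice seed, 2024 of 70419 methylated regions were listed in endosperm 2 days after pollination (DAP), disappeared from the endosperm lists at a later stage without returning, and had no peak in embryo at 3, 6 or 9 DAP. No embryo library of 2 DAP was analysed here, so the stage at which all members were listed has no embryo of its own age beside it. These regions are 2.87% of all regions and 6.38% of the 31731 regions listed in endosperm at 2 DAP. They were found by joining touching or overlapping peaks of 7 deposited peak lists, a list counting as present with 1 bp of overlap. The members are those present at 2 DAP alone, at 2 and 3 DAP, or at 2, 3 and 6 DAP, and in no embryo list. The presence calls that chose them are therefore a description, and no test is attached to them.

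The study captured methylated DNA of hand-dissected rice seed tissues with an antibody against methylated cytosine and sequenced it (MeDIP-seq). The libraries used here came from the japonica cultivar Zhonghua11 (ZH-11), grown in a phytotron, namely endosperm at 2, 3, 6 and 9 DAP and embryo at 3, 6 and 9 DAP. There was 1 library for each tissue at each stage, so no value has a replicate error. The 6 samples of the indica cultivar 93-11 were not analysed here.

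Cytosine methylation in plants lies mainly over transposons and other repeats, where it keeps them silent, and over the bodies of some genes. The endosperm, which feeds the embryo, forms after a second sperm fuses with the central cell, and its genome is known to be less methylated than that of the embryo because a DNA glycosylase removes methylated cytosines in the central cell before fertilisation. Early rice endosperm is a syncytium of free nuclei that later forms cell walls, divides and fills with starch and storage protein.

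A peak is a stretch where the sequenced fragments (tags, 1 per aligned read) pile up above the local background of the same library, with a p-value of at most 1e-05. The authors' score is 10 times the negative base-10 logarithm of that p-value, and the lowest score in the endosperm 2 DAP list was 50.02. A lost region is one where no peak passed this limit. The lists give no tag number outside peaks, so a loss can be a small step across the limit or a complete fall. In whole tissue, fewer cells with methylation at a site and less methylation per cell cannot be told apart. The 4 endosperm libraries held 6833917 to 7465986 filtered tags, fewest at 2 DAP, and the 3 embryo libraries 8062289 to 8423857. The part of depth in the losses was not tested.

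Most of the losses came at the first step. Of the 2024 regions, 1700 were listed at 2 DAP alone (84.0%, 95% exact interval 82.3 to 85.6), 129 at 2 and 3 DAP (6.37%, 5.35 to 7.53) and 195 at 2, 3 and 6 DAP (9.63%, 8.38 to 11.0). These intervals cover counting error only, treat regions as independent, and take no account of reads copied in PCR. Among all 4613 regions with these patterns, with or without an embryo peak, 55.8% were listed at 2 DAP alone. The plot of regions by stages present shows the single stage of 2 DAP as the most frequent of the 15 possible patterns.

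**Figure D1:**
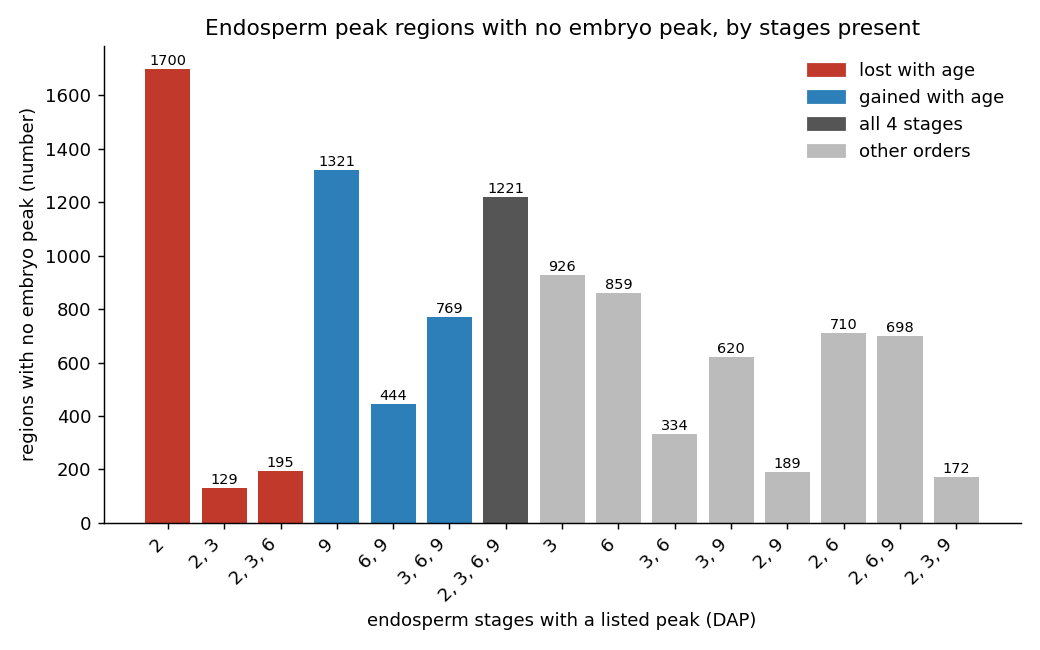
Number of merged regions with no embryo peak (vertical axis) for each combination of endosperm stages with a listed peak (horizontal axis, DAP). Regions lost with age (red) number 1700, 129 and 195, against 1321, 444 and 769 regions gained with age (blue) and 1221 present at all 4 stages (dark grey).

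Losses were fewer than gains in number. The 2024 lost regions compare with 2534 that were absent at 2 DAP, appeared later and stayed to 9 DAP, a ratio of 0.80. On all chromosomes but 1 there were fewer lost than gained regions. The ratio changed direction with the peaks used, being 1.06 when peaks below a score of 100 were left out of every list and 1.08 with equal numbers of highest-scoring peaks in each list. Of the gained regions, 769 were already present at 3 DAP, and 195 of the lost regions lasted to 6 DAP.

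Absence at 3 DAP was often followed by a return. Of the 5014 regions listed in endosperm at 2 DAP and in no embryo list, 40.4% were members (39.0 to 41.7). In all, 3297 of the 5014 had no peak at 3 DAP, and 42.7% of these (41.01 to 44.4) were listed again at 6 DAP. Among the 1889 missing at both 3 and 6 DAP, 10.01% returned at 9 DAP (8.69 to 11.4). A peak was thus listed in 34.2% of the 5014 regions at 3 DAP, in 56.3% at 6 DAP and in 45.5% at 9 DAP. By comparison, regions of endosperm 2 DAP that were also in all 3 embryo lists were listed in 93.1%, 93.8% and 90.7% of cases at 3, 6 and 9 DAP. The endosperm 3 DAP library thus stood apart from its neighbours in age for this class of region, and without it the rule gave 2765 regions, 66.8% of them at 2 DAP alone.

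How often a region lost in endosperm was also absent from embryo differed between the patterns of loss. Within these patterns alone, a later loss also means more endosperm lists with a peak. Stage and number of lists cannot be told apart there. Of all regions listed at 2 DAP alone among endosperm stages, 66.0% had no embryo peak (64.1 to 67.8). The share was 23.5% (20.05 to 27.3) for those listed at 2 and 3 DAP and 13.1% (11.4 to 14.9) for those listed at 2, 3 and 6 DAP. For regions at all 4 endosperm stages it was 5.35% (5.06 to 5.65). Regions gained late followed a similar order, with 51.5% for 9 DAP alone, 45.3% for 6 and 9 DAP and 22.6% for 3, 6 and 9 DAP. Patterns neither lost nor gained ran from 22.3% for 2, 3 and 9 DAP to 50.9% for 6 DAP alone. Regions of 2 and 6 DAP, also last listed at 6 DAP but absent at 3 DAP, had 50.7%, against 13.1% for those of 2, 3 and 6 DAP. The share thus differed between patterns with the same last stage. Regions of 2 DAP alone were about as often listed at each embryo stage, since 24.3%, 27.3% and 27.4% of them were listed in embryo at 3, 6 and 9 DAP. Some other patterns varied more, such as that of 2, 6 and 9 DAP with 38.5%, 49.4% and 38.6%. Others varied less, such as that of 2 and 3 DAP with 61.9%, 63.5% and 63.1%.

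**Figure D2:**
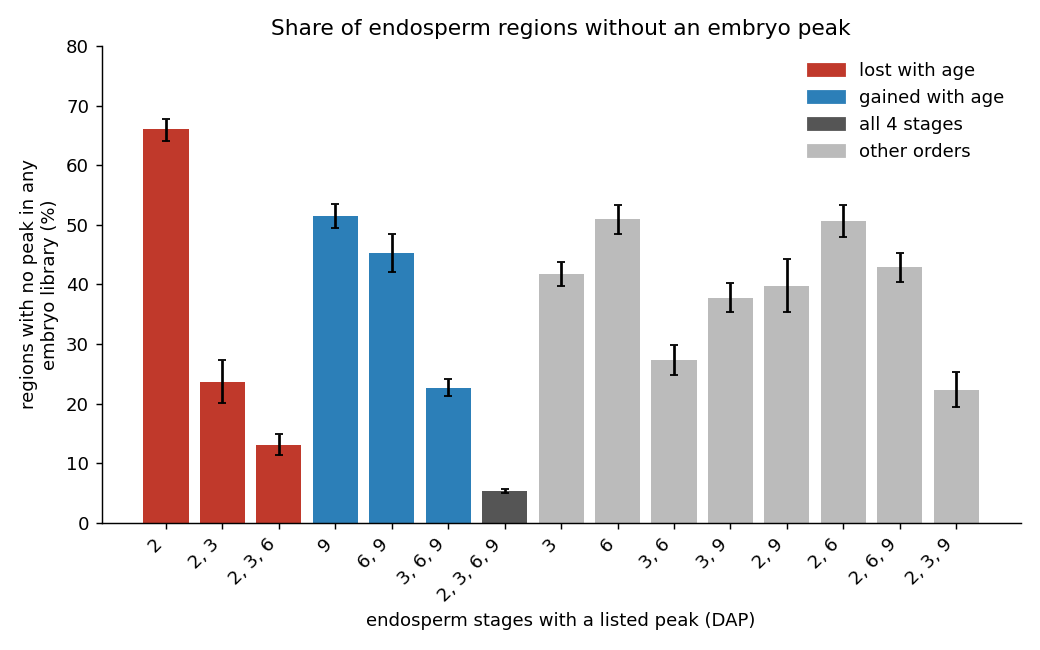
Share of regions with no peak in any of the 3 embryo libraries (vertical axis, %) for each combination of endosperm stages with a listed peak (horizontal axis, DAP), with exact 95% intervals for counting error. Regions of endosperm 2 DAP alone reach 66.0%, against 51.5% for 9 DAP alone and 5.35% for regions at all 4 stages.

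Nearly all strong peaks found in a single library were those of 2 DAP endosperm. Among regions listed in a single library, 91 of the 1700 of endosperm 2 DAP had a score of 200 or more, against 2 of 926 for endosperm 3 DAP, 1 of 859 for 6 DAP and 2 of 1321 for 9 DAP. The embryo libraries had 0 of 1168, 1 of 1623 and 2 of 3643 such regions at 3, 6 and 9 DAP. At a score of 100 or more the share was 29.6% for endosperm 2 DAP alone, and 5.29%, 5.70% and 5.15% for endosperm 3, 6 and 9 DAP alone. The lists as wholes did not differ in this way, since 28.8% of peaks scored 200 or more at 2 DAP and 30.4%, 32.2% and 25.6% did so in endosperm at 3, 6 and 9 DAP. The count of 91 was 212 without the endosperm 6 DAP library, while the highest other endosperm library had 2, and without endosperm 9 DAP it was 103, with 7 in the highest other. With peaks under a score of 100 left out of all lists it was 299, with 20 in the highest other endosperm library. With peaks under a fold enrichment of 5 removed from all lists it was 128, against at most 48 in another endosperm library.

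**Figure D3:**
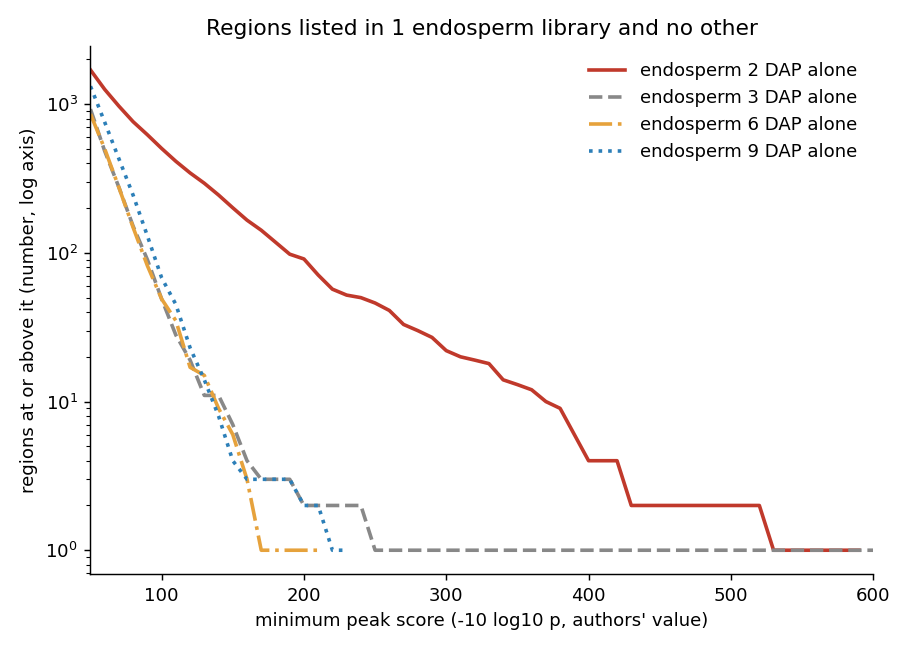
Number of regions listed in 1 endosperm library and in none of the other 6 (vertical axis, log scale) at or above each minimum peak score (horizontal axis). At a score of 200 or more endosperm 2 DAP keeps 91 regions, and endosperm 3, 6 and 9 DAP keep 2, 1 and 2. The line of 3 DAP ends beyond the axis with a single region of score 953.

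Single-library regions of 2 DAP were also longer and held more tags. Their median length was 832 bp, against 674, 654 and 694 bp for those of endosperm 3, 6 and 9 DAP alone, and their median tag number was 48, against 37.5, 37 and 38. Peaks of the whole 2 DAP list were longer too. Relative to the median peak of its own list, the median length of single-library regions was 0.75 at 2 DAP and 0.69, 0.66 and 0.68 in endosperm at 3, 6 and 9 DAP. In embryo it was 0.74, 0.69 and 0.76 at 3, 6 and 9 DAP, so 2 DAP endosperm did not stand apart in relative length. By number, 2 DAP alone exceeded the next endosperm library, 9 DAP alone, by a ratio of 1.29, which was 0.94 without the endosperm 3 DAP library.

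As a whole the lost regions were weaker and shorter than endosperm-only regions kept at all stages. Their medians were slightly above those of gained regions, whose score and fold come from another list, that of 9 DAP. The lost regions had a median score of 75.05 at 2 DAP, with quartiles of 59.3 and 107. Their median fold enrichment, which the authors give as the pile-up at a peak's summit over its local background, was 5.79. Regions found in endosperm alone at all 4 stages had a median 2 DAP score of 102 and a median fold of 6.23, and all regions of endosperm 2 DAP had 131 and 6.40. Gained regions had a median score of 68.6 and a median fold of 5.55 at 9 DAP. The whole lists differed in the same direction. Their median peak score was 127 at 2 DAP and 118 at 9 DAP, and their median fold 6.32 and 6.02. Peaks of the whole 2 DAP list were also longer than those of 9 DAP. Whether lost and gained regions differ beyond their lists was not tested. The lost regions had a median length of 855.5 bp, against 1218 bp for endosperm-only regions at all stages and 759 bp for gained regions. On each of the 12 chromosomes the median length of lost regions was below that of the regions kept at all stages. A merged region gains length with each library in it, so its length is not independent of the number of stages. Regions lost with age in embryo only, 2016 in number, had a median length of 680 bp and a median score of 63.9 in embryo at 3 DAP, and 0 of them reached 200. Of the regions lost in endosperm only, 5.48% did.

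The lost regions took up little of the 2 DAP methylome. They held 2025 peaks, 6.14% of that list, and 120458 tags, 3.33% of the tags in its peaks, over 1.89 Mb or 4.08% of its covered length. In all but 1 of them the 2 DAP list had a single peak.

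The share lost was lower for stronger 2 DAP peaks. The same score limit sets presence at 2 DAP and loss later, and weak peaks lie nearest to it. These shares are therefore a description. With no embryo peak, 54.2% of 2 DAP regions with a score of 50 to 60 were lost (51.0 to 57.3), 34.5% with a score of 100 to 150 (31.6 to 37.5) and 13.4% with a score of 300 or more (8.84 to 19.1). The share kept at all 4 stages went the other way, from 15.5% in the lowest class to 38.0% in the highest. Fold enrichment separated them less, with losses of 49.2% below a fold of 4 and 26.8% at 10 or more. The strongest score class held 25 lost regions, 22 of them listed at 2 DAP alone. Over all 2 DAP regions, with or without an embryo peak, lost regions were 17.5% of the lowest score class and 0.55% of the highest.

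**Figure D4:**
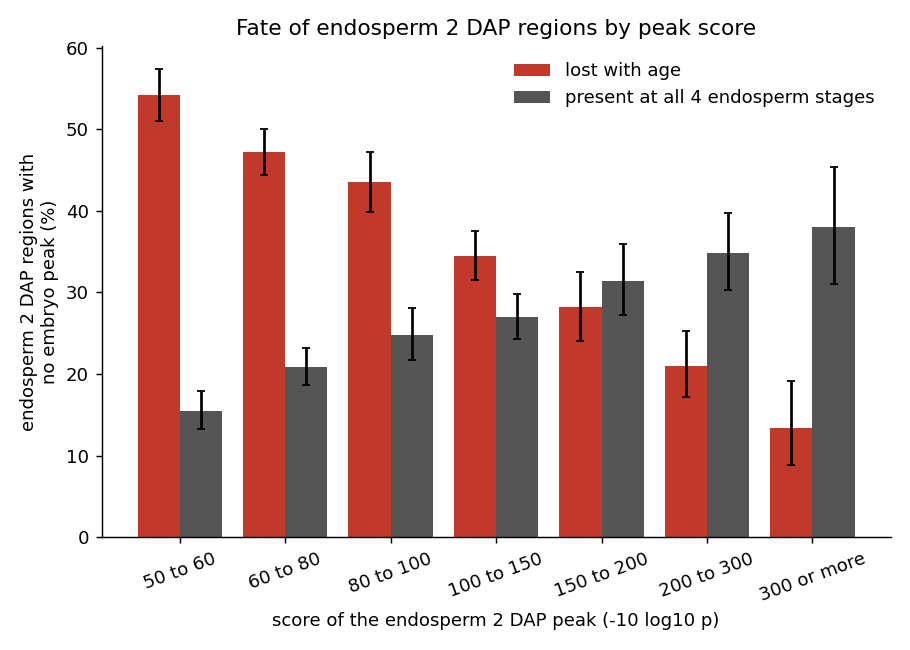
Share of endosperm 2 DAP regions with no embryo peak (vertical axis, %) that were lost with age (red) or present at all 4 endosperm stages (dark grey), by score of the 2 DAP peak (horizontal axis), with exact 95% intervals for counting error. The lost share is 54.2% in the lowest class and 13.4% in the highest.

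The strongest regions of each pattern are given next, chosen by their score at 2 DAP. Picking by a high 2 DAP value makes lower values at other stages likelier, so the later values are a description. Of the regions listed at 2 DAP alone, the highest score, 592, was on chromosome 12 from 1761812 to 1763110 (1299 bp). This peak held 142 tags, or 20.8 tags per 1000000 filtered tags (RPM), at a fold enrichment of 10.3. The nearest embryo peak was 7443 bp away and the nearest endosperm 9 DAP peak 17064 bp away, so its surroundings were empty in those lists too. It ranked 499 among the scores of the 31731 regions of endosperm 2 DAP.

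The second, on chromosome 11 from 21868984 to 21871432 (2449 bp), had a score of 520 with 190 tags and a fold of 10.6. A region on chromosome 1 from 25741369 to 25742574 (1206 bp) had a score of 425 with 129 tags. Unlike the first 2, this one lay close to peaks that stayed, 250 bp from an endosperm 9 DAP peak and 297 bp from an embryo peak. Chromosome 2 from 19236 to 20754, near the chromosome's start, had a score of 422 with 137 tags, and chromosome 5 from 4480782 to 4482138 had 397 with 165 tags. The smallest tag number of any peak in the endosperm 3, 6 and 9 DAP lists was 24, although longer stretches or a higher background need more.

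Among regions that lasted to 6 DAP, the highest score at 2 DAP, 399, was on chromosome 4 from 18963061 to 18964355 (1295 bp). It had 21.9 RPM at 2 DAP, 5.50 at 3 DAP and 6.16 at 6 DAP, from 150, 40 and 45 tags. Its fold enrichment was 9.97, 4.95 and 5.02 at those stages, so both measures were lower at 3 DAP than at 2 DAP.

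In the next 3 the tags within peaks followed the same order, but the fold enrichment differed less. Chromosome 1 from 34255194 to 34256573 had 16.5, 4.40 and 5.07 RPM at 2, 3 and 6 DAP. On chromosome 6 from 12213989 to 12215836 the values were 18.4, 4.40 and 5.75 RPM, and on chromosome 5 from 8155937 to 8157219 they were 18.3, 4.54 and 5.20 RPM. Their fold enrichments at 2, 3 and 6 DAP were 8.96, 7.68 and 7.89 on chromosome 1, 8.69, 7.18 and 8.38 on chromosome 6, and 6.12, 7.08 and 6.25 on chromosome 5, where it was thus higher at 3 DAP. RPM within listed peaks depends on the length of the peak, which fold enrichment at the summit does not. The fifth, on chromosome 2 from 4671871 to 4672946, differed in falling at both steps, with 15.1, 7.70 and 3.83 RPM, at fold enrichments of 10.8, 5.94 and 5.92.

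Regions listed at 2 and 3 DAP had no strong member, the highest score being 177 on chromosome 6 from 22100941 to 22102565. That region had 3.85 RPM at 3 DAP, against 13.6 RPM at 2 DAP. Its fold enrichment was higher, with 6.19 at 3 DAP, against 4.98 at 2 DAP. The others of the top 5 in this pattern also had fewer RPM within peaks at 3 DAP. Chromosome 10 from 18882631 to 18883978 had 3.44 RPM at 3 DAP, against 11.4 at 2 DAP, and chromosome 11 from 15755708 to 15756959 had 9.08, against 18.0. Fold enrichment was lower at 3 DAP in the first of these 2, with 5.94 against 10.3, and higher in the second, with 5.90 against 4.43.

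The lost regions with a score of 200 or more were 91 of 2 DAP alone, 0 of 2 and 3 DAP and 20 of 2, 3 and 6 DAP. They had a median length of 1130 bp, a median of 91 tags (59 to 260) and a median fold enrichment of 8.96 (4.09 to 15.5), and lay on all 12 chromosomes with 1 to 14 on each. The nearest endosperm 9 DAP peak was a median of 3042 bp away, and the nearest embryo peak 1587 bp. In the 20 that lasted to 6 DAP the median tag number was 112, 39 and 45 at 2, 3 and 6 DAP. In 17 of these 20 the RPM was at least 2-fold lower at 3 DAP than at 2 DAP, and in 12 of 20 at 6 DAP. Endosperm-only regions at all stages with the same 2 DAP score also had less later, with 122 of 214 at least 2-fold lower at 3 DAP and 33 of 214 at 6 DAP. Both sets were picked for a high 2 DAP score, so these counts are a description.

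Taken without regard to score, the levels before loss were lower than at 2 DAP at the next stage. RPM here counts only tags inside listed peaks. The 195 regions that lasted to 6 DAP had a median of 7.61 RPM at 2 DAP, 5.92 at 3 DAP and 6.71 at 6 DAP, and the 129 that lasted to 3 DAP had 5.23 RPM at 3 DAP, against 6.88 at 2 DAP. In endosperm-only regions at all stages the medians were 9.22, 7.29, 8.90 and 8.44 RPM at 2, 3, 6 and 9 DAP, so the dip at 3 DAP was common to kept and lost regions. The medians of the lost regions lay below those of the kept ones at each stage where they were listed, 2 DAP included. Presence calls on these same peaks define both sets, so this is a description.

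**Figure D5:**
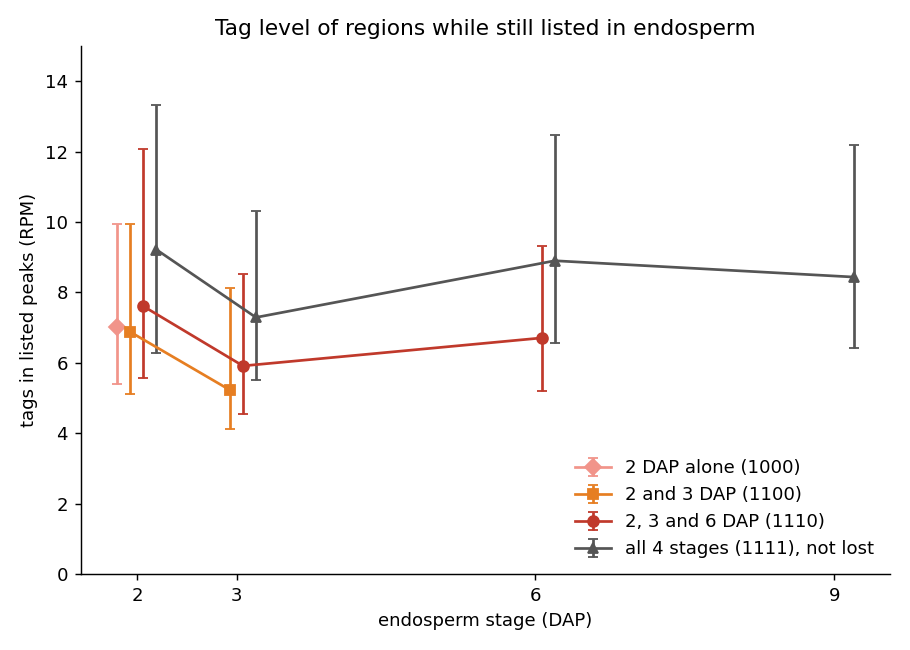
Tags in listed peaks per 1000000 filtered tags (vertical axis, RPM) by endosperm stage (horizontal axis, DAP), as medians with quartiles over regions, for the 3 patterns of loss and for regions kept at all 4 stages (in the legend, 1 marks presence and 0 absence, in order of stage). The regions lost after 6 DAP have medians of 7.61, 5.92 and 6.71 RPM, and the kept regions 9.22, 7.29, 8.90 and 8.44 RPM.

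At 3 DAP, 50 of the 324 lost regions still listed (15.4%) were at least 2-fold lower than at 2 DAP, against 6.57% of all 25649 regions listed at both stages and 17.0% of endosperm-only regions at all stages. The median log2 difference of 3 minus 2 DAP was -0.21 in the lost regions and -0.16 in the kept endosperm-only regions, and 0.08 over all regions listed at both. At 6 DAP, 17 of 195 (8.72%) were at least 2-fold lower than at 2 DAP, against 4.50% of the kept endosperm-only regions and 2.87% of all 27359 regions listed at both. From 3 to 6 DAP, 1 of 195 fell 2-fold, with 1.33% over all regions. The rule uses presence at these stages, so nothing about loss is read from these shares. Tags per kb of peak hardly moved in the regions lost after 6 DAP, with medians of 8.62, 8.32 and 8.25 RPM per kb at 2, 3 and 6 DAP. The listed peaks covered a median of 91.7%, 75.3% and 83.3% of the region at those stages, so the lower RPM at 3 DAP went with shorter peaks.

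Long members were few. Only 65 of the 2024 lost regions reached 2 kb, and 78 of the 2534 gained regions did. Among endosperm-only regions at all stages 160 of 1221 reached it, and among all regions 11073 of 70419. The longest lay on chromosome 5 from 16720956 to 16726429 (5474 bp), with 72.1, 57.6 and 86.5 RPM at 2, 3 and 6 DAP, so it was lower at 3 DAP than at 2 DAP and highest at its last listed stage. The next, on chromosome 4 from 9874143 to 9879604 (5462 bp), had 36.4, 84.1 and 68.3 RPM, and the nearest embryo peak was 314 bp away. At 6 DAP, its last listed stage, the second of these was lower than at 3 DAP but above its 2 DAP level. Fold enrichment in these 2 regions was 3.20 to 3.56, below the median of any list.

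The third longest of this pattern, on chromosome 1 from 39768220 to 39772380 (4161 bp), had 35.9, 13.8 and 24.4 RPM. The longest region of 2 DAP alone, on chromosome 9 from 13225463 to 13229564 (4102 bp), held 488 tags at a score of only 83.9 and lay 88 bp from an endosperm 9 DAP peak. On chromosome 3 from 2278323 to 2281883 a region of 3561 bp had 38.7 RPM at 3 DAP, against 17.6 RPM at 2 DAP. Its fold enrichment was lower at 3 DAP, with 2.80 against 3.17. Of the same pattern, chromosome 1 from 14664001 to 14667665 also had more RPM at 3 DAP, 24.4 against 13.6. Chromosome 3 from 35227276 to 35230539 had less, 5.09 against 25.2.

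At the limit of the rule, the weakest members had scores of 50.02, 50.08, 50.11, 50.13 and 50.14 at 2 DAP. The weakest, on chromosome 2 from 7838870 to 7840688, still held 139 tags, while that on chromosome 4 from 34795478 to 34796145 held 30. Just outside the rule stood strong 2 DAP regions with a weak peak in 1 other list. One on chromosome 7 from 20515633 to 20516974 had a score of 386 at 2 DAP and was left out for an embryo 9 DAP peak of 34 tags and a score of 67.1. Another, on chromosome 2 from 7941416 to 7942506, had 339 at 2 DAP and was left out for an endosperm 9 DAP peak of 34 tags and a score of 53.3.

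Lost regions lay somewhat nearer to embryo peaks than the comparison sets did. Their median distance was 1875, 1870.5 and 1773 bp to embryo peaks of 3, 6 and 9 DAP, against 2079, 2025 and 1989 bp for endosperm-only regions at all stages and 2303.5, 2254.5 and 2184.5 bp for gained regions. The nearest peak of endosperm 9 DAP was a median of 2196 bp away, and 16.7% of the lost regions had one within 500 bp (15.1 to 18.3). An embryo peak of any stage lay within 500 bp of 22.9% (21.1 to 24.8). Neither tissue had a peak within 1000 bp of 1080 lost regions, 53.4% (51.2 to 55.6), counting endosperm at 9 DAP and embryo at all stages. Shares for endosperm 9 DAP, for any embryo stage and for both together were taken for the lost regions alone. They say nothing of a difference from other sets. For single embryo libraries, 15.8% to 17.7% of lost regions had a peak within 500 bp, close to the 16.0% to 17.7% of endosperm-only regions at all stages and above the 13.1% to 14.1% of gained regions.

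The surroundings of lost regions held more peaks later in development. In the 10 kb around each lost region, leaving out the region itself, endosperm peaks covered a mean of 981, 1130, 1129 and 1175 bp at 2, 3, 6 and 9 DAP. Around endosperm-only regions at all stages the means were 736, 801, 760 and 803 bp, and around gained regions they were 976, 927, 965 and 941 bp. The peak caller took its background from the same 10 kb of the same library, and the part of these changes in the losses was not tested. In embryo the surroundings of lost regions held 1281, 1262 and 1335 bp at 3, 6 and 9 DAP, more than in endosperm at any stage. The same held around endosperm-only regions at all stages, with 1109, 1119 and 1193 bp, and around gained regions, with 1124, 1118 and 1171 bp. As wholes, the embryo lists covered 55.6 to 57.5 Mb and the endosperm lists 46.3 to 49.0 Mb.

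Lost regions stood somewhat closer to other regions, with a median of 879.5 bp to the nearest one, against 967 bp for endosperm-only regions at all stages, 1116 bp for gained regions and 1054 bp for all regions. Of the regions directly next to a lost one, 3.85% were lost themselves (3.28 to 4.49), compared with 3.91% of the neighbours of gained regions and 2.87% of those of all regions. Embryo-only regions present in all 3 embryo lists made up 14.4% of their neighbours, against 15.2% for gained regions and 19.5% over all regions. Regions shared by all 7 lists made up 26.7%, against 26.3% over all regions.

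Losses were spread over the whole genome. All 12 chromosomes held between 134 and 218 lost regions, with 3 more on unplaced sequences. As a share of the regions listed at 2 DAP, they ran from 5.37% on chromosome 3 to 7.29% on chromosome 4, and chromosomes 6, 9, 11 and 12 also had over 7% each. Per Mb up to the last listed peak, the density was 4.20 on chromosome 3 and 6.31 on chromosome 9.

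Of 367 complete bins of 1 Mb, 5 had no lost region, the median was 5 and the highest 16. That bin, on chromosome 12 from 15000001 to 16000000, had 16 lost among 219 regions (7.31%). The next were chromosome 12 from 8000001 to 9000000 with 15 of 211 and chromosome 11 from 9000001 to 10000000 with 14 of 200. Whether lost regions were more frequent in peak-rich bins depended on how bins were ranked. Ranked by embryo coverage, they made up 3.13%, 2.73%, 2.64%, 3.01% and 2.93% of regions from the poorest to the richest quintile, with exact intervals that overlapped. Ranked by the coverage of all 7 libraries, the shares were 2.87%, 2.25%, 2.57%, 3.29% and 3.35%, and the interval of the second quintile (2.00 to 2.51) lay below that of the fifth (3.07 to 3.65). Coverage of all 7 libraries includes the 2 DAP peaks of the lost regions, so this ranking is not independent of them. As a share of 2 DAP regions, with bins ranked by embryo coverage, the values were 7.66%, 6.76%, 5.99%, 6.42% and 5.67%, since the poorer bins held fewer 2 DAP regions.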

How the data were processed

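The authors deposited 1 peak list per library. Bowtie2 and MACS were used, per the submitters' processing notes, which give no roles. Per the file headers, MACS 1.4.2 called the peaks with no control library. The headers also give a p-value limit of 1e-05, an effective genome of 360 Mb, tags of 41 bp set to fragments of 200 bp, at most 1 tag kept per position, and 10 kb as the window of the local background. Tag counts (whole reads, not scaled), the score, the fold enrichment (a ratio), the length and the summit are the authors' values per peak, per the file headers. A background taken from the immunoprecipitated library itself can lower the score of peaks in dense stretches. The genome build is not given in the sources used here, so genes and sequences were not analysed.

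Peaks were merged into regions, checked on simulated data with planted patterns, and RPM was computed from filtered tags. Where a list had several peaks in a region, their tags and covered lengths were summed. The highest score and the highest fold enrichment were taken, each on its own. Python 3.11.15, pandas 2.3.3 and scipy 1.17.1 were used. Shares have exact Clopper-Pearson 95% intervals. The members, the comparison sets and the classes were chosen with earlier results of these data known. No test was run, because the rule uses all 7 libraries and each stage is 1 library. Regions were named by rule: the 5 highest 2 DAP scores and the 3 longest of each pattern, the 5 lowest scores, and the 3 bins of 1 Mb with most members, described in part. Alternatives covered peak filters, merging, overlap, left-out libraries, distances, bins and scaling.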

Additional observations from a re-analysis of the deposited data

How the results depend on the processing

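With no replicate of any stage, changes were held against counting intervals, and counts against a factor of 1.5. The number of lost regions, 2024, was 3554 with equal numbers of highest-scoring peaks and 585 when a 2 DAP score of 100 or more was required, and it ran from 2171 to 2773 without 1 library. The share at 2 DAP alone, 84.0%, was 79.6% at a score of 100 or more in all lists, 76.8% at a fold enrichment of 5 or more, 74.0% with equal numbers and 86.2% for 2 DAP scores of 100 or more, and it ran from 66.8% to 88.2% without 1 library. The ratio of lost to gained regions, 0.80, turned to 1.06 at a score of 100 or more and 1.08 with equal numbers, was 0.90 at a fold enrichment of 5 or more, and ran from 0.76 to 0.87 without 1 library. The ratio of 2 DAP alone to the next endosperm library, 1.29, was 1.77 at a score of 100 or more, 1.42 at a fold enrichment of 5 or more and 1.64 with equal numbers. It ran from 0.94, turned by leaving out endosperm at 3 DAP, to 1.37 without 1 library. The number of regions of 2 DAP alone with a score of 200 or more, 91, was 299 at a score of 100 or more in all lists and 150 with equal numbers. The causes were not tested. Merging over gaps of 200 bp, requiring 10% of a region to be covered, and classing 2 DAP peaks by direct overlap kept the count between 1687 and 2065. The direct overlap, the share without an embryo peak by pattern and with the embryo lists taken singly, the score and fold classes, and the count at a score of 200 or more were added after seeing the data. No paired analysis was possible because each tissue and stage is 1 library. Alternatives on genes and base composition were not run for lack of a genome of the files' build. Endosperm at 2 DAP was needed by the rule and was never left out.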
